A study of Macaca mulatta with 449 samples.

Results

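The cholesterol synthesis genes HMGCS1, IDI1, SQLE, LSS and DHCR7 were followed through the rhesus macaque brain atlas. They were taken by symbol from a list of 7 enzymes of the pathway, of which 5 could be matched to 1 row each of a count table of 30807 genes. The rows were ENSMMUG00000001226 for HMGCS1, ENSMMUG00000017115 for IDI1, ENSMMUG00000003535 for SQLE, ENSMMUG00000022329 for LSS and ENSMMUG00000011976 for DHCR7. FDFT1, the squalene synthase, and CYP51A1, which demethylates lanosterol, were not analysed here because no row could be matched to them. The table holds ribosomal-RNA-depleted total RNA from 51 sub-regions of 8 animals, with 7784678 to 31083490 counted reads per library (median 10698602). The animals were 4 males and 4 females, of which 4 were young, aged 3.2 to 5 years, and 4 were mid-aged, aged 9.8 to 10 years; the labels name no treatment, and every animal gave 1 library per sub-region. Each member was well counted: the lowest count in any library was 49 reads for DHCR7 and 61 for LSS, and 281 for SQLE. Levels are given as CPM, the read counts of a library divided by its size in megareads after scaling by trimmed mean of M-values (TMM), as mean ± SD over the 8 animals. Sub-regions were grouped into 16 region groups, and the counts of a group with several sub-regions were summed per animal. Gene lengths were not at hand for this annotation, so each gene is compared between regions and not with another gene.

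Cholesterol is made from acetyl-CoA. The mevalonate part of the pathway yields isoprenoid units that are joined to squalene, and squalene is then oxidised, closed into the sterol ring system and trimmed to cholesterol. The brain makes its own cholesterol because plasma lipoproteins do not cross the blood-brain barrier, and most of it sits in myelin, the membrane that oligodendrocytes wrap around axons. Astrocytes and, to a lesser degree in adults, neurons also make sterols. HMGCS1 acts early, in the step that makes HMG-CoA. IDI1 interconverts the activated isoprenoid units. SQLE, the epoxidase, carries out the first oxygenation of squalene, LSS closes the ring to lanosterol, and DHCR7 reduces a double bond in one of the last steps. Transcription of the pathway is driven by the sterol-regulated factor encoded by SREBF2.

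The question set by the regional design was whether these genes followed myelin, and how cortex and pituitary compared. The regions called myelin-rich from anatomy were corpus callosum (CC), globus pallidus (GP), pons (PON) and medulla oblongata (MO). The 10 oligodendrocyte markers, among them the myelin genes MBP and MOG, summed to 108961 ± 9410.5 CPM in CC, 66984 ± 18436 in GP, 53985 ± 19752 in MO and 40848 ± 7291 in PON, against 3233 ± 295 in cortex and 37.7 ± 13.2 in pituitary (PIT). The 8 neuron markers summed to 15846 ± 3093 CPM in PON and 12745 ± 678 in cortex, to 7045 ± 3199 in MO and 4173 ± 1121 in GP, and to 486 ± 216 in CC. The labelled regions thus carried their defining transcripts, and PIT carried 104813 CPM of PRL, the prolactin gene of the anterior lobe, against 5.77 in cortex. The marker check does not set PON and MO apart from every other region. The ventral tegmental area, left outside the myelin-rich set, had a higher mean of oligodendrocyte markers than PON and MO. A few libraries stood apart from the other animals of their region. In MO the neuron markers of animal 6 summed to 383 CPM, against 5677 to 10170.0 in the other 7 animals. In GP the oligodendrocyte markers of animal 2 summed to 108767 CPM, against 51474 to 76458. In CC the choroid plexus markers, led by TTR, ranged from 241 to 2584 CPM, highest in animal 10, against a cortical mean of 10.1. In hypothalamus (HTHA) animal 6 had the most neuron marker and the least oligodendrocyte marker transcript. Results were computed with and without these 4 libraries, a choice made after the data were seen. In bulk tissue, fewer cells of a type and less RNA per cell cannot be told apart.

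The 4 myelin-rich regions did not share 1 pattern. PON and MO had the highest HMGCS1 and IDI1 of the 16 region groups and were above cortex for every member, CC lay between them and GP for 4 of 5, and GP stood at or near the bottom for every member, although its oligodendrocyte markers were above those of PON and MO. The plot of levels by region shows this order gene by gene. For HMGCS1, PON held 197 ± 34.7 CPM and MO 187 ± 53.5 CPM, the highest means of the 16 groups. Cortex held 99.4 ± 17.3 CPM, CC 79.7 ± 17.9 CPM and GP 41.7 ± 15.3 CPM. The animals ranged from 146 to 234 CPM with a median of 203 in PON and from 17 to 59.2 CPM with a median of 47.6 in GP, so that every PON value was above every GP value. IDI1 had the same top pair, with 148 ± 16.8 CPM in PON and 119 ± 19.3 CPM in MO. It held 70.4 ± 8.03 CPM in cortex, 64.3 ± 10.1 CPM in CC and 48.9 ± 5.77 CPM in GP. The PON animals (122 to 170.4 CPM) were all above the highest cortical animal (61 to 84.9 CPM). SQLE was also highest in PON, at 149 ± 22.7 CPM, and was lowest of all groups in GP, at 42.8 ± 7.73 CPM. Its animals spanned 34.8 to 55.5 CPM in GP, 62.1 to 81.2 CPM in cortex and 122 to 181 CPM in PON, with no overlap between these 3 groups. LSS was highest in MO at 31.2 ± 10.2 CPM and lowest in GP at 12.2 ± 2.71 CPM, with 24 ± 7.53 CPM in CC, 22.6 ± 8.64 CPM in PON and 16.5 ± 2.39 CPM in cortex. Its animals were widely spread in PON (11.5 to 34.1 CPM) and CC (8.61 to 31.9 CPM), and both ranges overlapped that of cortex (12.8 to 20.1 CPM). The first rank of MO rested on animal 6, whose library stood apart, at 51.6 CPM: without it MO averaged 28.3 ± 6.58 CPM (n = 7), below hippocampus (HIP) at 28.6 ± 4.50 CPM. DHCR7 was highest in HTHA, at 38.2 ± 7.66 CPM, and in amygdala (AMY), at 36 ± 4.29 CPM, ahead of MO at 34.4 ± 7.14 CPM. Cortex held 14.6 ± 2.21 CPM and GP 11.5 ± 2.87 CPM, and cerebellum (CB) was lowest at 10.5 ± 1.12 CPM. The MO animals ranged from 26.5 to 45.6 CPM with a median of 32.7. Those in cortex ranged from 11.3 to 18 CPM with a median of 14.7, without overlap with MO, while GP (6.99 to 15.1 CPM) overlapped cortex. How many of all genes have ranges that separate between these regions is not given here.

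**Figure D1:**
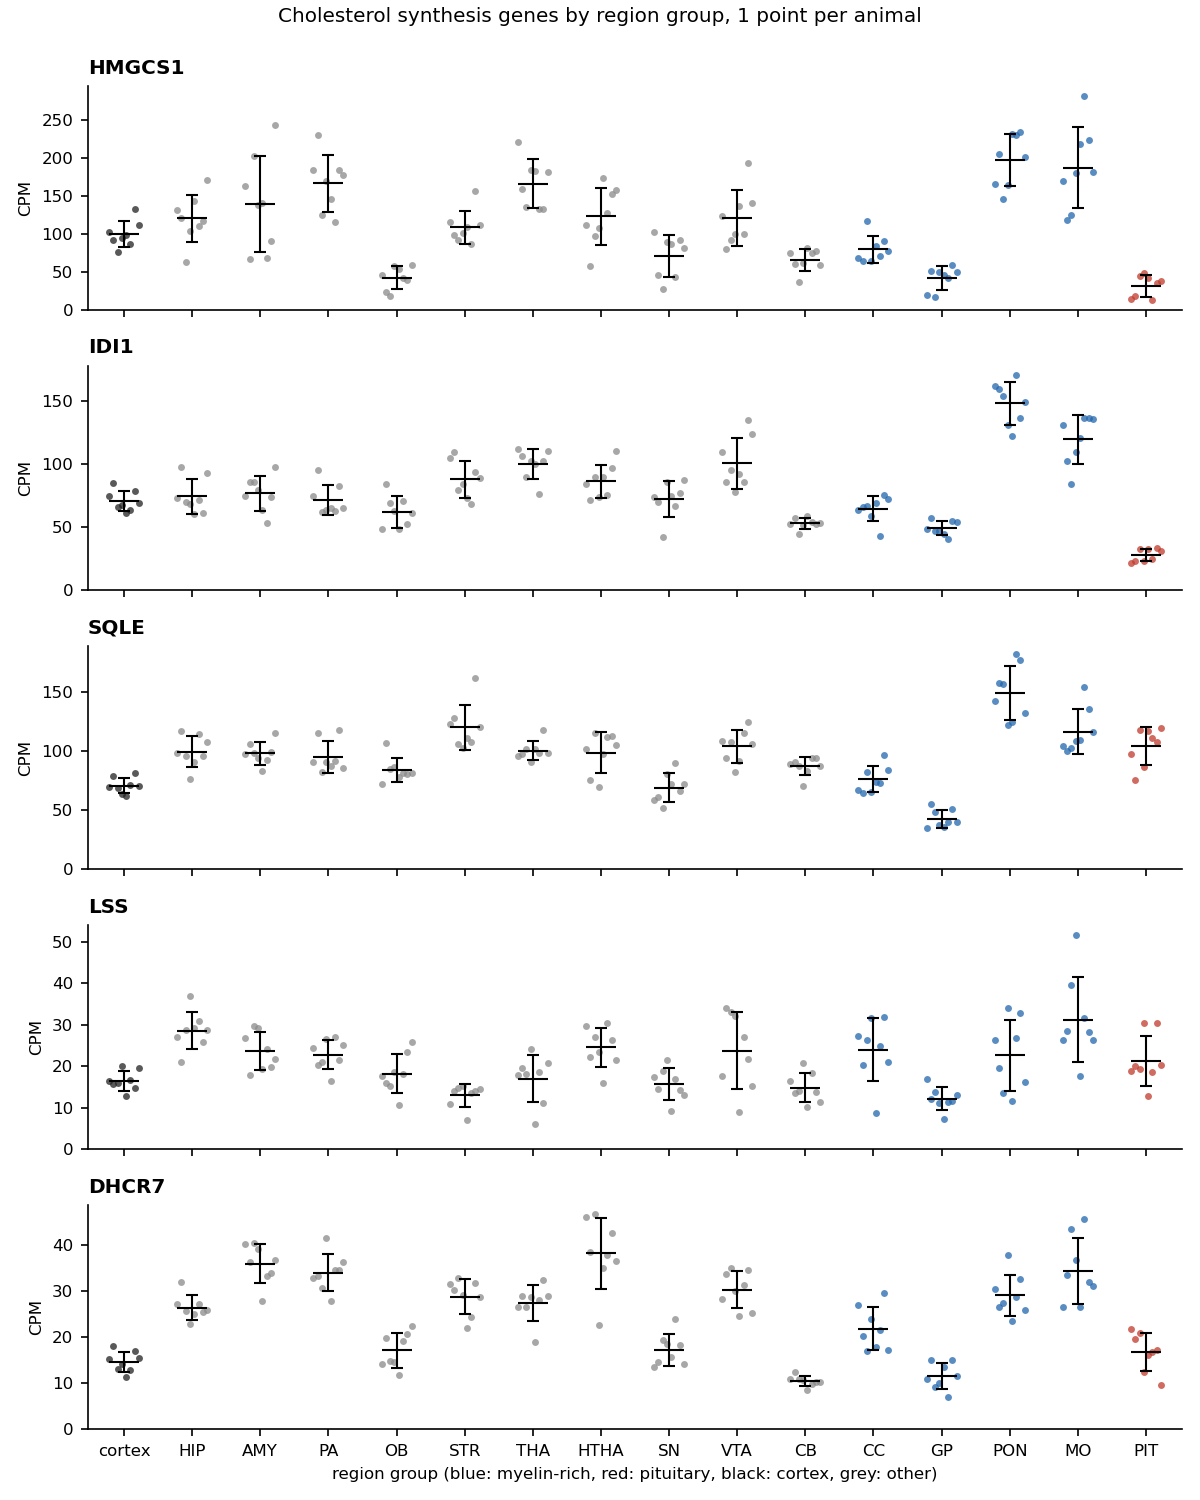
Level of each gene (CPM, linear axis from 0) in 16 region groups; points are the 8 animals and the black bars the mean with SD, with myelin-rich regions in blue, pituitary in red and cortex in black. PON is the highest group for HMGCS1, IDI1 and SQLE, while GP, with means of 41.7, 48.9 and 42.8 CPM, lies below cortex for all 5 genes.

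Tested against cortex with edgeR's quasi-likelihood F test with the animal as a block, p-values adjusted by Benjamini-Hochberg over 16829 genes and a threshold of 0.05, the members were higher in 5 of 5 in PON and in 5 of 5 in MO, higher in 2 of 5 in CC, and lower in 5 of 5 in GP. Of all genes tested, 31% were higher in PON, 33.7% in MO and 39.2% in CC, and 36.9% were lower in GP. In the other direction the shares of all genes were 32.4% in PON, 33.2% in MO, 40% in CC and 35.9% in GP, where no member was called. In PON the log2 differences from cortex (± SE) were 1.00 ± 0.20 for HMGCS1, 1.08 ± 0.11 for IDI1, 1.07 ± 0.087 for SQLE and 1.00 ± 0.12 for DHCR7, each about a doubling, and 0.41 ± 0.14 for LSS. In MO they ran from 0.71 ± 0.087 for SQLE to 1.24 ± 0.12 for DHCR7. In CC only DHCR7 (0.58 ± 0.12 with an adjusted p of 4.57e-06) and LSS (0.49 ± 0.14 with an adjusted p of 0.00144) passed, while HMGCS1 (-0.28 ± 0.20), IDI1 (-0.13 ± 0.10) and SQLE (0.10 ± 0.087) did not. In GP the log2 differences were -1.26 ± 0.21 for HMGCS1, -0.73 ± 0.088 for SQLE, -0.53 ± 0.11 for IDI1, -0.45 ± 0.15 for LSS and -0.34 ± 0.12 for DHCR7. The differences among the 4 regions were tested directly in the same edgeR fit. All 5 members were higher in PON than in GP and all 5 were higher in MO than in GP, where 28.2% and 22.9% of all genes were higher. The largest was HMGCS1 at 2.26 ± 0.22 between PON and GP, and SQLE differed by 1.80 ± 0.090. All 5 were lower in GP than in CC (27.6% of all genes), at -0.98 ± 0.21 for HMGCS1 and -0.40 ± 0.11 for IDI1. Against CC, 4 of 5 were higher in PON (32.7% of all genes) and 5 of 5 in MO (33.4%), the exception being LSS in PON at -0.079 ± 0.15 with an adjusted p of 0.633. Between MO and PON, 3 of 5 differed (44.3% of all genes): LSS was higher in MO by 0.47 ± 0.15, and IDI1 and SQLE were lower there, at -0.31 ± 0.11 and -0.36 ± 0.087. Without the 4 libraries that stood apart, no member gained or lost a call in any of these contrasts; HMGCS1 in GP against cortex was then -1.18 and DHCR7 in MO against cortex 1.20. The astrocyte markers summed to 8685 ± 3277 CPM in MO, 7039.8 ± 759 in CC, 6699 ± 901 in GP and 2951 ± 919 in PON, an order that differs from that of the members.

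Averaged with equal weight over CC, GP, PON and MO, the members were modestly higher than in cortex. DHCR7 averaged 24.2 ± 2.48 CPM over the 4 regions and 14.6 ± 2.21 in cortex, and IDI1 95.1 ± 6.53 against 70.4 ± 8.03. In both genes, and in SQLE, every animal's myelin-rich mean was above every cortical value. The share of all genes whose ranges separate in such comparisons is not given here, so separation describes these genes alone. HMGCS1 averaged 126 ± 21.8 against 99.4 ± 17.3 CPM and was higher in 8 of 8 animals, with overlapping ranges, and LSS was higher in 6 of 8. By the same edgeR test 4 of 5 members passed as higher and none as lower, where 36.7% of all genes were higher and 39.4% lower. The log2 differences were 0.62 ± 0.094 with an adjusted p of 4.53e-09 for DHCR7, 0.33 ± 0.11 with an adjusted p of 0.00699 for LSS, 0.30 ± 0.084 with an adjusted p of 0.00101 for IDI1 and 0.29 ± 0.070 with an adjusted p of 1.16e-04 for SQLE. HMGCS1 did not pass, at 0.094 ± 0.16 with an adjusted p of 0.606; this test averages the 4 regions on the log scale, where the low GP values weigh more than in the mean CPM. The members' median was 0.30, that of all genes -0.024, and no member reached a 2-fold difference. Beside this, 10 of 10 oligodendrocyte, 4 of 4 microglia and 4 of 4 endothelial markers were higher in the myelin-rich average, 8 of 8 neuron markers were lower, and of 7 astrocyte markers 4 were higher and 2 lower; the part of any of these in the members' differences was not tested. This average rests on which regions are called myelin-rich. With CC and GP alone, the regions with the most oligodendrocyte transcript, no member was higher and 3 were lower, HMGCS1 at -0.77, IDI1 at -0.33 and SQLE at -0.31. Of all 16829 genes, 6544 were higher and 6869 lower with these 2 regions. Without GP, a choice made after the data were seen, all 5 passed as higher, HMGCS1 at 0.54. There 6013 of the 16829 genes were higher and 6503 lower. LSS missed the threshold without animal 2, at 0.26 with an edgeR adjusted p of 0.0503, and without the filter on low counts, at 0.24.

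The rest of the pathway, taken from a list of the other enzymes and regulators, did not move as one. In the myelin-rich average, 5 of 5 measured enzymes after squalene were higher than in cortex, with a median log2 difference of 1.16. Of all genes, 36.7% were higher and 39.4% lower in this average. TM7SF2, a sterol reductase, was higher by 1.21 ± 0.10; MSMO1, the methylsterol monooxygenase, and HSD17B7 were at 0.52 ± 0.090 and 0.47 ± 0.073. Of the 5 measured enzymes of the mevalonate and isoprenoid part, 3 were higher. MVK, the mevalonate kinase, was higher by 1.44 ± 0.087 and FDPS, the farnesyl diphosphate synthase, by 0.32 ± 0.075, and ACAT2, which makes acetoacetyl-CoA, was at 0.015 ± 0.076 with an edgeR adjusted p of 0.863. In GP alone FDPS was at -0.54 ± 0.094 and MSMO1 at -0.49 ± 0.11 from cortex, on the same side of 0 as the 5 members. These 2 enzymes do not stand for the rest of the pathway in GP. The GP values of MVK and TM7SF2, the higher ones named above, are not listed in the text. Other myelin lipid enzymes were far higher in the myelin-rich average: FA2H, which hydroxylates myelin fatty acids, by 4.36 ± 0.22, and UGT8, which makes galactosylceramide, by 4.05 ± 0.18; in GP alone they stood at 4.13 ± 0.23 and 3.97 ± 0.20. ELOVL7 was at 0.72 ± 0.10 and FASN, the fatty acid synthase, was lower at -0.34 ± 0.093. Among genes of sterol sensing, 4 of 8 were higher and 2 lower in the myelin-rich average. INSIG1, which holds the sterol sensor in the endoplasmic reticulum, was higher by 1.95 ± 0.10, SREBF2 was lower at -0.72 ± 0.060 and MBTPS1, a protease that activates the SREBF2 product, at -0.37 ± 0.041.

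**Figure D2:**
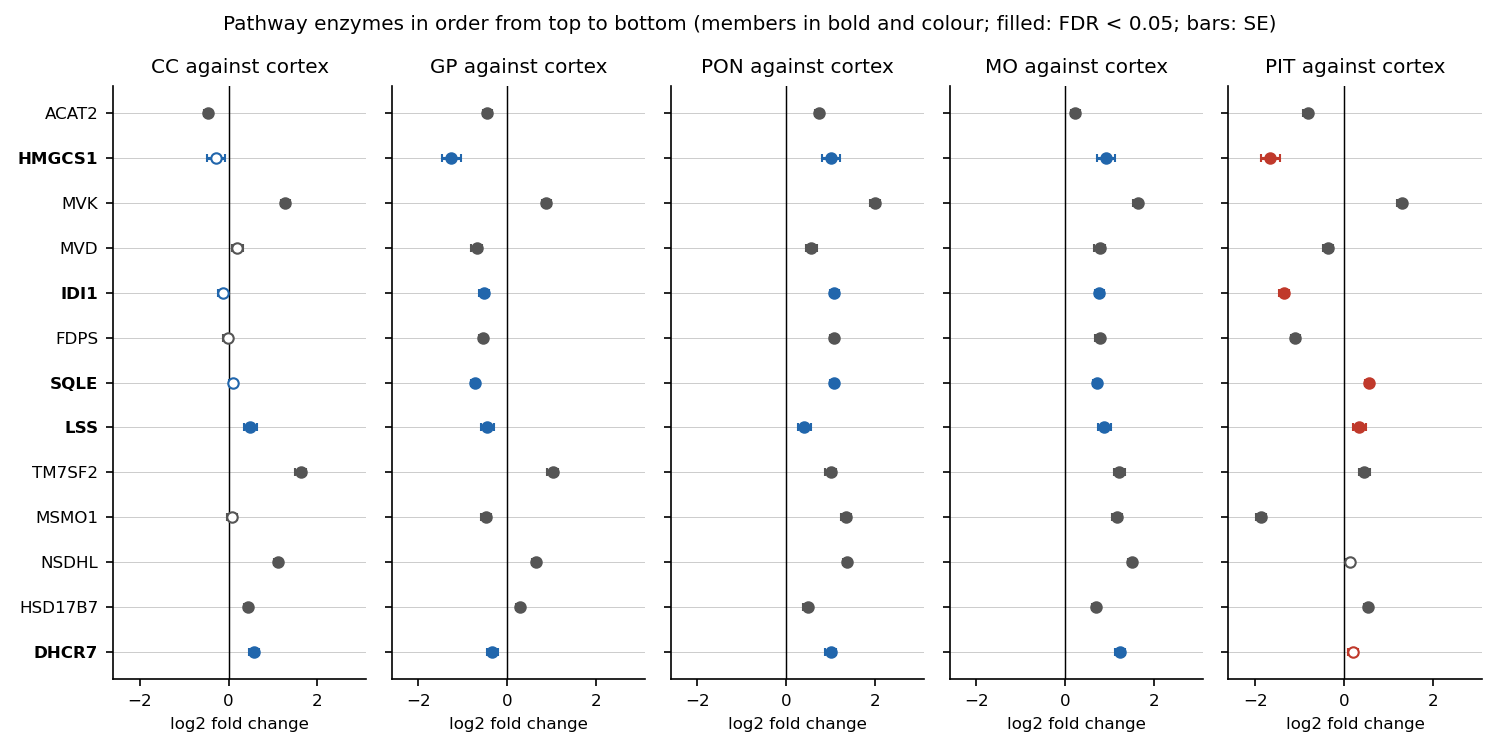
Log2 fold change against cortex (x axis, ± SE) of 13 pathway enzymes listed from the start to the end of the pathway, for CC, GP, PON, MO and PIT; members are in bold and colour, and filled points passed an adjusted p of 0.05 in edgeR. The 5 members lie left of 0 in GP and right of 0 in PON and MO.

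Across the 51 sub-regions, the members' mean log2(CPM + 1) had Pearson coefficients with the mean of the 10 oligodendrocyte markers of 0.13 for HMGCS1, 0.10 for SQLE, -0.015 for LSS, 0.23 for DHCR7 and 0.54 for IDI1. The coefficient of INSIG1, which takes part in sterol sensing, was 0.79. Among other enzymes of the pathway it was 0.70 for TM7SF2, 0.52 for MVK and 0.42 for MSMO1. FDPS and HSD17B7 each had 0.38, and ACAT2 had 0.30. These are descriptions over 51 points that share animals and scaling. Among themselves the members fell into looser and tighter pairs over the same 51 points. HMGCS1 with IDI1 had r = 0.79, and DHCR7 with SQLE and LSS 0.80 and 0.72, while IDI1 with LSS had 0.20. Of 14771 genes with a mean of at least 1 CPM, the one most like HMGCS1 was HACD3, a fatty acid elongation dehydratase (r = 0.89). The most like IDI1 was MSMO1 (0.84), like DHCR7 PGRMC1, a progesterone receptor membrane component (0.90), and like SQLE the zinc finger gene ZNF229 (0.80). Among the genes most like the mean of the 5 were MSMO1 (0.90) and PGRMC1 (0.86).

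**Figure D3:**
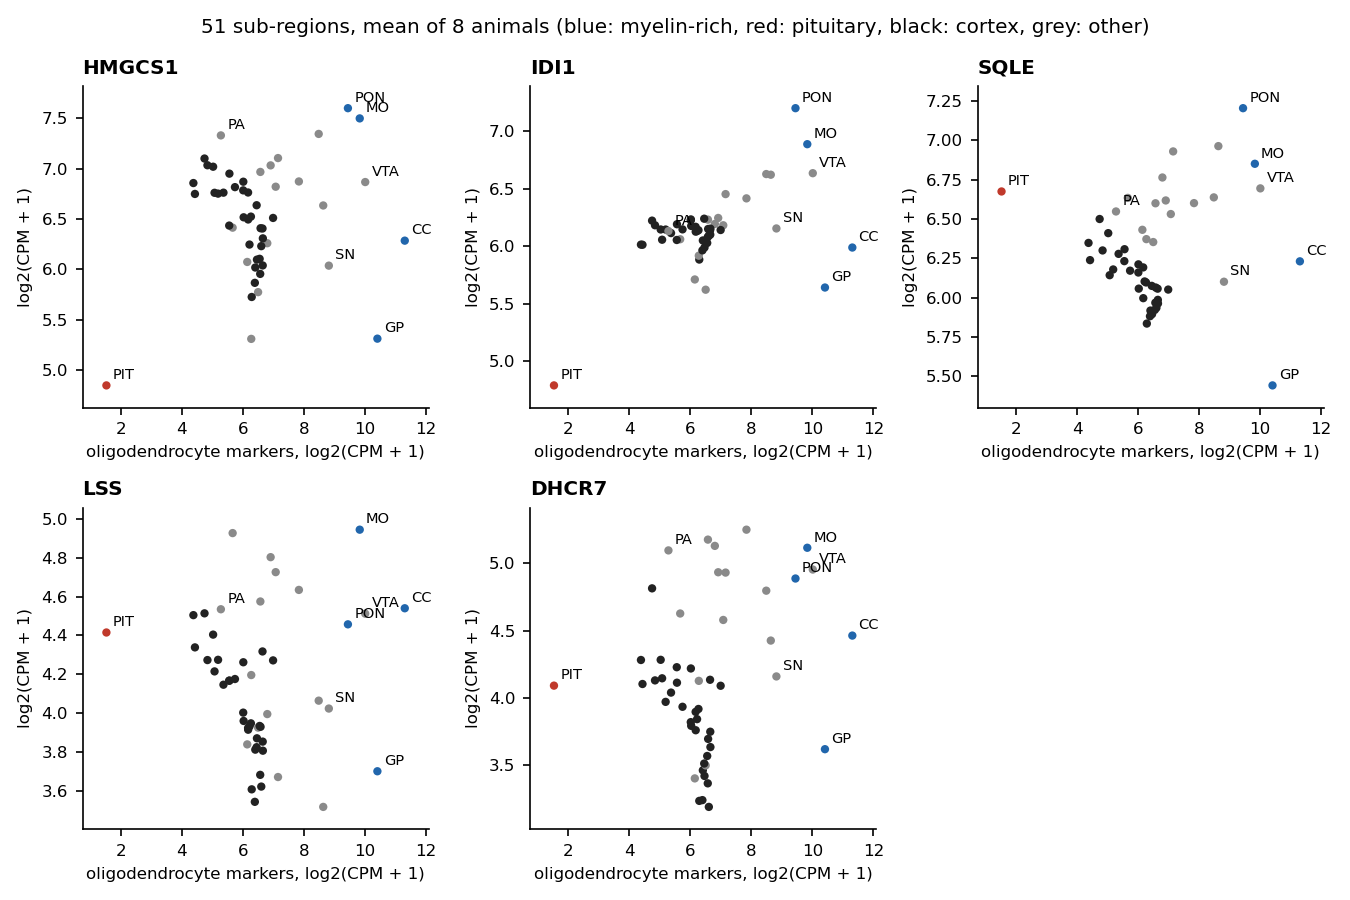
Mean log2(CPM + 1) of each gene (y axis) against the mean log2(CPM + 1) of 10 oligodendrocyte markers (x axis) in 51 sub-regions, each point the mean of 8 animals. GP, with more oligodendrocyte transcript than PON, lies below PON and MO for all 5 members, and r runs from -0.015 for LSS to 0.54 for IDI1.

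In the pituitary, which lies outside the blood-brain barrier over much of its extent and whose libraries held 12.5 CPM of MBP, the members moved in both directions. HMGCS1 and IDI1, of the mevalonate and isoprenoid part, had their lowest level of the 16 groups, and SQLE and LSS, which act on squalene and its epoxide, were above cortex. HMGCS1 stood at 31.6 ± 14.5 CPM and IDI1 at 27.5 ± 5.12 CPM. The animals ranged from 12.4 to 48.8 CPM with a median of 36.9 for HMGCS1, and from 21.1 to 33.1 CPM with a median of 27.6 for IDI1. Every pituitary value of both genes lay below every cortical value, which began at 76.3 and 61 CPM. SQLE stood at 104 ± 16.1 CPM, higher than cortex in 7 of 8 animals, and LSS at 21.3 ± 6.06 CPM, also higher in 7 of 8. DHCR7 stood at 16.8 ± 4.15 CPM, higher in 6 of 8, and in these 3 genes the ranges of pituitary and cortex overlapped. How many of all genes have separate ranges in pituitary and cortex is not given here, so the ranges describe the members alone. By edgeR's test against cortex, 2 members were lower and 2 higher, where 39.5% of all genes were lower and 41.2% higher. The log2 differences were -1.66 ± 0.21 with an adjusted p of 9.20e-12 for HMGCS1, -1.35 ± 0.11 with an adjusted p of 4.76e-22 for IDI1, 0.56 ± 0.087 with an adjusted p of 7.78e-09 for SQLE and 0.34 ± 0.14 with an adjusted p of 0.0243 for LSS. DHCR7 did not pass, at 0.20 ± 0.12 with an adjusted p of 0.105. The members' median was 0.20, and that of all genes 0.026. The 10 oligodendrocyte, 8 neuron and 7 astrocyte markers were all lower in the pituitary than in cortex and the 8 measured anterior pituitary markers all higher, so cell types and levels per cell cannot be told apart here. The LSS call was lost without animal 2, 6, 8 or 10 in turn (lowest log2 difference 0.24, without animal 10), without the filter on low counts and without the animal block, and DHCR7 passed with upper quartile scaling at 0.37, where the median of all genes moved to 0.20. The calls of HMGCS1, IDI1 and SQLE held in every alternative run. Against the myelin-rich average, 3 members were lower and 1 higher (38.1% and 42.8% of all genes). HMGCS1 was at -1.75 ± 0.19, IDI1 at -1.64 ± 0.095 and DHCR7 at -0.42 ± 0.097, and SQLE was higher by 0.27 ± 0.068; LSS was at 0.012 ± 0.12 with an adjusted p of 0.928. This comparison shares its pituitary samples with the one before. The higher SQLE depended on GP: without it the difference was -0.070 and was not called. The rest of the pathway was likewise mixed in the pituitary. Of the mevalonate and isoprenoid enzymes 4 of 5 were lower and 1 higher: FDPS at -1.09 ± 0.095 and MVD, the mevalonate diphosphate decarboxylase, at -0.36 ± 0.12 were lower, and MVK was higher by 1.30 ± 0.10. Of the enzymes after squalene 2 were lower and 2 higher: MSMO1 at -1.86 ± 0.11 was among the lower, and HSD17B7 and TM7SF2 were higher by 0.54 ± 0.091 and 0.45 ± 0.12. SREBF2 was at -1.62 ± 0.082, and INSIG2, a paralogue of INSIG1, at -0.42 ± 0.11; SCAP, the sterol sensor itself, was higher by 0.73 ± 0.094. UGT8 and FA2H were at -4.55 ± 0.23 and -3.57 ± 0.30, while CERS2, a ceramide synthase, and ELOVL1 were higher by 1.75 ± 0.13 and 0.62 ± 0.16.

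Among the other region groups, most members were higher than cortex in 7 of 10. In thalamus, HTHA, ventral tegmental area (VTA), AMY and PA, the entorhinal and perirhinal cortex, 4 of 5 members passed as higher and none as lower. Of all genes, 17.5% were higher and 17.5% lower in PA, 18.7% and 19.7% in AMY, 27.6% and 29.1% in thalamus, 28.7% and 27.5% in HTHA, and 32.8% and 33.8% in VTA. HIP had 3 members higher and none lower (22.9% and 21.5% of all genes), and striatum 3 higher and 1, LSS, lower (27.2% and 26.1%). Olfactory bulb had SQLE higher and HMGCS1 lower (33.2% and 31.4%), CB 1 member higher and 3 lower (35% and 32%), and substantia nigra (SN) only HMGCS1 lower (33.8% and 34.5%). DHCR7 and SQLE passed as higher in all 7 of these, DHCR7 by 0.86 ± 0.11 in HIP to 1.39 ± 0.12 in HTHA and SQLE by 0.43 ± 0.087 in PA to 0.76 ± 0.087 in striatum. IDI1 did not pass in PA, AMY and HIP, HMGCS1 in HTHA, VTA, HIP and striatum, and LSS in thalamus. Without the hypothalamic library of animal 6 DHCR7 in HTHA was at 1.46. PA, which held little oligodendrocyte transcript (1574 ± 368 CPM), had HMGCS1 at 166 ± 37 CPM and DHCR7 at 34 ± 4.03 CPM, 0.76 ± 0.20 and 1.22 ± 0.12 from cortex on the log2 scale. VTA and SN, neighbours in the midbrain, differed in oligodendrocyte markers (56258 ± 7186 and 25661 ± 6069 CPM), and DHCR7 was 30.3 ± 4.12 CPM in VTA and 17.2 ± 3.48 CPM in SN; that difference was not tested. Striatum was second to PON for SQLE, at 119.8 ± 18.9 CPM. When the 16 groups were ranked by mean, some neighbours lay apart: IDI1 was higher in GP than in PIT, and SQLE higher in SN than in GP, by 0.82 ± 0.30 and 0.67 ± 0.42 on the log2 scale (SD, n = 8), each in 8 of 8 animals. Of 75 such pairs, 9 had an unadjusted p under 0.05 in a two-sided exact sign-flip permutation test over the 8 animals. None passed Benjamini-Hochberg adjustment over the 75, but with a smallest possible p of 0.00781 that outcome was nearly set by the design and says nothing of how close the neighbours are, and the pairs were picked by the same means.

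Within the cortex, all 5 members differed among the 31 sub-regions by edgeR's F test with the animal as a block, as did 75% of 15981 genes. The anterior cingular gyrus (ACG) had the highest mean of the 31 for HMGCS1 (144 ± 41.8 CPM), SQLE (90.2 ± 11.7 CPM), DHCR7 (27.7 ± 5.98 CPM) and LSS (22.4 ± 5.21 CPM), and the occipital gyri were at the bottom. The inferior occipital gyrus (IOG) was lowest for HMGCS1 at 53.8 ± 14.8 CPM, for SQLE at 56.5 ± 7.09 CPM and for IDI1 at 58.4 ± 7.23 CPM. The adjusted p was 9.34e-53 for DHCR7, 2.09e-16 for HMGCS1 and 0.00617 for IDI1. By lobe, averaged per animal, DHCR7 went from 16.6 ± 2.35 CPM in frontal to 8.49 ± 1.42 in occipital cortex, LSS from 18.4 ± 3.35 to 11.2 ± 1.53, and HMGCS1 from 112 ± 17.7 to 62.8 ± 11.1. SQLE went from 73.4 ± 8.17 to 58.3 ± 4.28 CPM, and IDI1 from 70.6 ± 11.1 to 62.5 ± 3.44. Occipital was below frontal in 8 of 8 animals for DHCR7, LSS, HMGCS1 and SQLE, each with p = 0.00781, the smallest that an exact sign-flip permutation test over 8 animals can give, and in 6 of 8 for IDI1 (exact p = 0.0469). On the log2 scale the occipital minus frontal difference (mean ± SD, n = 8) was -0.89 ± 0.20 for DHCR7 and -0.16 ± 0.18 for IDI1. The 5 p-values are unadjusted. Frontal and occipital held the highest and the lowest lobe mean of DHCR7, LSS, HMGCS1 and SQLE in these same values. The p-values of these 4 genes are therefore no independent test. How many of all genes differ between these lobes is not given here. The oligodendrocyte and the neuron markers ran against 4 of the 5 members here, IDI1 being the exception. Over the 31 cortical sub-regions the members' coefficients with the oligodendrocyte markers were -0.80 for SQLE, -0.72 for LSS, -0.70 for HMGCS1, -0.68 for DHCR7 and -0.023 for IDI1. With the mean of 7 astrocyte markers, such as AQP4 and GJA1, they were 0.95 for LSS, 0.93 for DHCR7, 0.88 for HMGCS1, 0.85 for SQLE and 0.45 for IDI1. Over all 51 sub-regions the same astrocyte coefficients were 0.57 for IDI1, 0.54 for HMGCS1, 0.30 for DHCR7, 0.19 for LSS and -0.027 for SQLE. With the 8 neuron markers the cortical coefficients were -0.70 for LSS, -0.55 for DHCR7, -0.52 for SQLE, -0.41 for HMGCS1 and 0.27 for IDI1. These are descriptions over points that share animals and scaling, and the part of cell type proportions was not tested. IDI1 was the member in which animals differed more than places. In cortex the SD of its log2 level was 0.16 between the means of the 8 animals and 0.084 between the means of the 31 sub-regions, while for DHCR7 the values were 0.21 and 0.37.

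**Figure D4:**
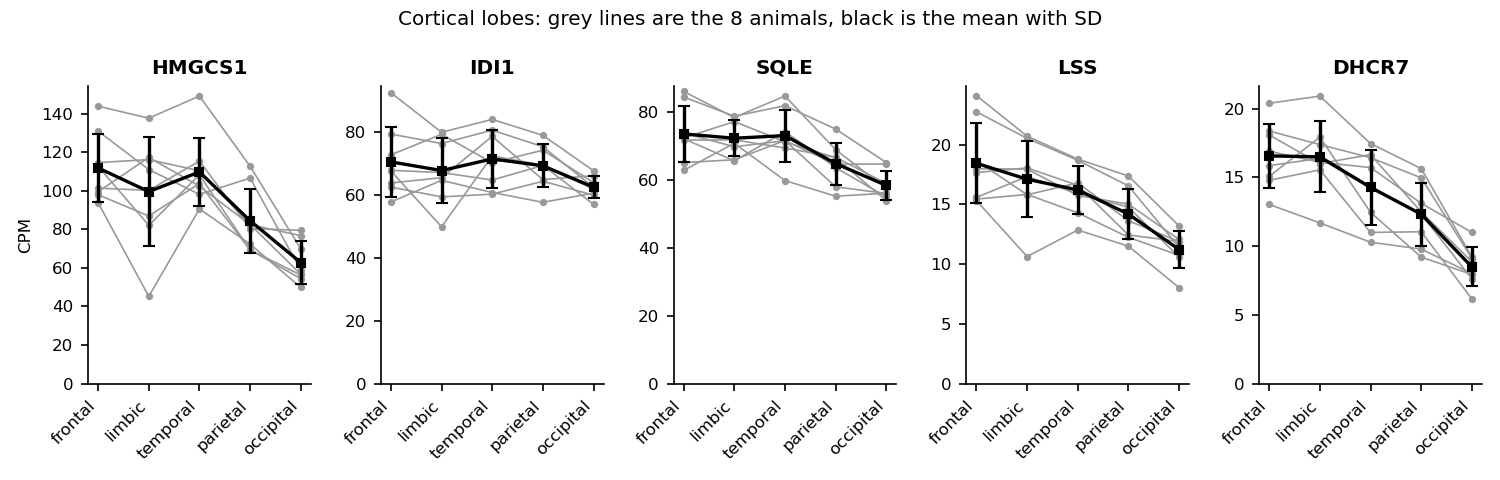
Level (CPM, axis from 0) by cortical lobe for each member; grey lines are the 8 animals, each the mean of its sub-regions in the lobe, and black is the mean with SD. Occipital cortex has the lowest mean for all 5, and IDI1, at 62.5 against 70.6 CPM in frontal cortex, has the flattest profile.

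Within the striatum 4 of 5 members differed between accumbens nucleus (ACb), caudate nucleus (CN) and putamen (PUT) in edgeR, as did 57.0% of all genes. DHCR7 went down from 34.5 ± 6.48 CPM in ACb to 29.8 ± 4.53 CPM in CN and 20.8 ± 3.97 CPM in PUT, and IDI1 went up from 73.8 ± 17.1 CPM to 87.1 ± 9.55 CPM and 99.8 ± 23 CPM. PUT against ACb was -0.74 ± 0.095 with an adjusted p of 2.67e-06 for DHCR7 and 0.43 ± 0.090 with an adjusted p of 6.64e-04 for IDI1. HMGCS1 was highest in CN, 0.80 ± 0.18 above ACb, and LSS was lower in PUT than in ACb, at -0.52 ± 0.12. SQLE did not pass the test over the 3 nuclei (adjusted p = 0.0742 in edgeR). In the hippocampus only DHCR7 passed (adjusted p = 0.0147 in edgeR; 32.7% of all genes), with 29.9 ± 5.11 CPM in CA1, 24 ± 4.03 CPM in the dentate gyrus and 23 ± 2.57 CPM in CA3. Between cerebellar cortex and vermis no member passed, where 0.842% of all genes did; the log2 differences of vermis from cerebellar cortex ran from -0.092 ± 0.13 for DHCR7 to 0.29 ± 0.20 for HMGCS1.

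Age stage and sex were tested within cortex, CC, GP, PON, MO and PIT with an adjusted p of 0.1 and a 2-fold change, each with the other as covariate. No member passed for age in edgeR, where the log2 differences of mid-aged from young ran from -0.39 to 0.26 over the 30 pairs of member and region; 1 of the 30, in CC, had an unadjusted p under 0.05, as had 724 of 14989 genes there, and DESeq2 called none. Over all genes and the 6 regions edgeR called 35 gene and region pairs (0.0364% of those tested) and DESeq2 499. No member passed for sex in edgeR either, where 0.103% of gene and region pairs did, and 2 of 30 pairs had an unadjusted p under 0.05 (HMGCS1 and LSS), both in the pituitary, where 3235 of 15400 genes had one. HMGCS1 there was 44.2, 48.8, 35.2 and 38.5 CPM in the 4 females and 14.5, 17.9, 41.5 and 12.4 CPM in the 4 males. Of the males, animal 7 alone lay within the female range. The log2 difference of female from male was 1.03 ± 0.37, with an edgeR adjusted p of 0.223. DESeq2 called it, and without animal 7 edgeR did, at 1.59. Both routes also called more of all genes. DESeq2 called more pituitary genes for sex than edgeR did. Without animal 7 the edgeR calls for sex over all genes and the 6 regions rose from 99 to 2236 gene and region pairs. Leaving out the only male within the female range of HMGCS1 also favours a call for this gene. LSS in the pituitary was 0.57 ± 0.22 with an adjusted p of 0.224. The difference of the sex effect between pituitary and cortex, tested as an interaction in edgeR, was 0.95 ± 0.40 with an adjusted p of 0.177 for HMGCS1, and no interaction of age or sex with the myelin-rich or pituitary contrast passed for any member. Of the 8 anterior pituitary markers, the gonadotropin subunits FSHB and LHB passed the same edgeR interaction with sex. FSHB was at 4.54 ± 0.66 with an adjusted p of 4.26e-06, and LHB at -4.08 ± 0.87 with an adjusted p of 0.00272. In cortex FSHB held 2.15 ± 0.88 CPM and LHB 0.147 ± 0.070 CPM, so the LHB value rests in part on cortical counts near 0. The part of FSHB and LHB in the values of HMGCS1 was not tested. Over all genes the interaction passed in 1.72% for sex and 0.903% for age in the pituitary contrast, and in 0.0119% and 0.00594% in the myelin-rich contrast.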

How the data were processed

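Total RNA was depleted of ribosomal RNA and made into directional libraries, per the labels. The authors checked reads with FastQC 0.11.4, trimmed those of poor quality with Trim Galore 0.4.4, aligned them with HISAT2 2.0.5 to Mmul 8.0.1 and counted them on Ensembl release 91 genes with HTSeq 0.6.1; its strand and overlap settings are not given in the sources used here, so reads of overlapping genes may be split or lost. They deposited raw counts per gene, without pooling of animals. The deposited assembly of transcripts, the chromatin accessibility samples and 8 midbrain samples were not used here. Gene symbols came from a reference table of gene names and a supplementary table; genes without a symbol stayed in the tests, and listed genes without a match were left out.

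Counts of sub-regions were summed per region group and animal. edgeR 4.0.16 (R 4.3.3) was used with TMM factors, filterByExpr and the quasi-likelihood F test, with the animal as a block, since libraries of 1 number come from 1 animal per the labels. P-values were adjusted by Benjamini-Hochberg over all genes tested. SE is the absolute log2 difference divided by the square root of F. DESeq2 1.42.0 was an alternative, with other scalings, no filter, no block and each animal left out. Age stage and sex were fitted per region group without a block. The fits were tested on simulated data. Levels and correlations were computed in Python 3.11.15. With the counts at hand precision is set mainly by the 8 animals. The members and lists were chosen with earlier results of these data known. Named genes were all members, the measured genes of each list with the 2 largest and 2 smallest log2 differences in the myelin-rich and pituitary contrasts, and the genes most like the members over sub-regions; a few genes that this rule names are not reported here. Promoter motifs were planned and not run, as no promoter sequences were at hand.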

Additional observations from a re-analysis of the deposited data

Results flagged for a closer look

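Of 80 sets of 8 animals (5 members in 16 region groups), 7 had 1 animal whose gap to the next, divided by the range of the set, was above Dixon's critical value; chance alone flags about 1 in 20 sets. Animal 10, a young female, was high in 3 of them: HMGCS1 in striatum stood at 156 CPM against 86 to 115 in the other 7 animals, SQLE in striatum at 161 against 103 to 128, and SQLE in thalamus at 118 against 91 to 102. SQLE in olfactory bulb was high in animal 3 at 107 CPM (others 72.4 to 86.8). Low values were SQLE in cerebellum of animal 6 at 70.7 CPM (others 83.4 to 94.3), DHCR7 in thalamus of animal 7 at 18.9 (others 26.5 to 32.5) and IDI1 in substantia nigra of animal 4 at 42.2 (others 66.6 to 87.1).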

How the results depend on the processing

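Of 365 recomputed log2 differences of members, 344 kept their direction and call, 10 lost and 7 gained a call and 4 reversed, and the 80 mean levels moved by less than 1 SD with DESeq2 size factors. The cause of the changes below was not tested beyond the construction of each alternative. With CC and GP alone as myelin-rich regions, 0 members were higher and 3 lower than cortex, and HMGCS1, IDI1 and SQLE reversed to -0.77, -0.33 and -0.31. Of all 16829 genes, 6544 were higher and 6869 lower in that setting. With GP left out, a choice made after seeing the data, 0 members were higher in pituitary than in the myelin-rich regions and SQLE was at -0.070. There 7156 of the 16829 genes were higher in pituitary and 6365 lower. In pituitary against cortex 2 members were higher, 1 without the filter and 1 to 3 when each animal was left out: LSS fell out without animals 2, 6, 8 and 10 (edgeR adjusted p 0.0578 to 0.147) and DHCR7 came in without animal 11. The animal is the block and its number, from the labels, pairs the samples. Without the block 1 member was higher in pituitary, the IDI1 call among cortical sub-regions and the LSS call within striatum were lost (adjusted p 0.441 and 0.075), and genes called fell from 8446 to 5503 in striatum, from 4836 to 2272 in hippocampus and from 120 to 16 in cerebellum, where DESeq2's likelihood ratio test called 249. Upper quartile scaling moved the median of all genes to 0.10, 0.20 and 0.11 in the 3 main contrasts. For age, 35 gene and region pairs became 6 without the covariate, 499 with DESeq2 and 0 to 163 when each animal was left out (163 without animal 7). For sex, 99 became 762 with DESeq2 and 79 to 2236 (2236 without animal 7), and the member pairs, 0, became 1 with DESeq2 and 0 to 1. The threshold for age and sex left differences below 2-fold out of the calls.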

Other observations

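LSS varied with the animal in a similar way from region to region. Animal 7, a young male, had the lowest LSS of the 8 animals in 14 of 16 region groups, and animal 6, a mid-aged female, the highest in 8. In CC animal 7 stood at 8.61 CPM, in PON at 11.5, in MO at 17.7 and in pituitary at 12.7, while animal 6 stood at 31.7, 34.1, 51.6 and 30.3. DHCR7 was also lowest in animal 7 in 10 of 16 groups, and SQLE lowest in animal 6 in 7. HMGCS1 and SQLE were highest in animal 10 in 5 and 6 of 16 groups. The groups of 1 animal share its handling and processing, and the part of these was not tested.

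Genes that move, store or remove cholesterol were also called in both directions. In the myelin-rich average 9 of 13 were higher than cortex and 3 lower in edgeR, where 36.7% of all genes were higher and 39.4% lower. LIPA, the lysosomal acid lipase, and NPC1, which exports cholesterol from lysosomes, were higher by 3.23 ± 0.14 and 2.47 ± 0.11. CYP46A1, the neuronal enzyme that turns cholesterol into a form that leaves the brain, and ABCG4, a sterol transporter, were lower at -2.15 ± 0.092 and -1.37 ± 0.13. In the pituitary both were lower, at -3.23 ± 0.14 and -4.86 ± 0.22 from cortex, and NPC2, a lysosomal sterol carrier, and SOAT1, which esterifies cholesterol, were higher by 2.65 ± 0.14 and 2.33 ± 0.16. In all, 7 of the 13 were higher and 6 lower there, where 41.2% of all genes were higher and 39.5% lower.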
